A study of Mus musculus with 6 samples.

Results

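Of the 41345 probe sets of the array, 1814 carried 2 or more gene symbols in the platform annotation, and each of these was followed as 1 measurement with all its symbols reported together. A probe set is the group of short array oligonucleotides whose signals are summarised to 1 value, and one with several symbols cannot assign its signal to any 1 of the genes it is paired with. Another 23521 probe sets carried 1 symbol and 16010 had no symbol listed. The samples came from KP1, a mouse small cell lung cancer cell line derived from the Rb/p53/p130 triple knockout model, so these genes were knocked out in both groups. The control group was 3 samples of KP1 cells transfected with an empty ires-GFP vector. The N1ICD group was 3 samples transfected with Notch1-ICD-ires-GFP, which makes the intracellular domain of Notch1, the part that acts in the nucleus once the receptor has been cut. In both groups GFP+ cells were sorted 48 h after transfection, and total RNA was hybridised to Affymetrix Mouse Gene 2.0 ST arrays. All 6 samples are from 1 cell line. The labels call the 3 samples of a group biological replicates without saying how they were separated, so the p-values describe the spread between these samples.

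Gene symbols meet on 1 probe set for several structural reasons. Neighbouring genes can overlap or run into each other, an antisense transcript can cover its partner, a microRNA or small nucleolar RNA is cut from the transcript of a host gene, and members of duplicated families such as the histones can be too alike for short oligonucleotides to separate. Notch signalling is known in small cell lung cancer as a switch away from the neuroendocrine state, and several of the gene pairs below include transcription factors, imprinted RNAs and cell division genes.

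Sequences are shown for the probe sets on which the results turn, from RefSeq on GRCm38.p6. Selected mature microRNAs of the hosts that changed, and those of Mcm7 and of the miR-17-92 cluster that share seeds with each other, are given 5′ to 3′ with the seed, bases 2 to 8, in capitals. Of the 148 microRNA symbols among the members, 113 were in the sequence table. The first pair lies in H19 (miR-675-5p at chr7:142577112-142577133, minus strand) and the next in the Zeb2 locus (miR-5129-5p at chr2:45023146-45023167, minus strand). The miR-19b-1 and miR-92a-1 products are from the miR-17-92 cluster (miR-92a-3p at chr14:115044476-115044496, plus strand), as is miR-17-5p (chr14:115043684-115043706, plus strand). miR-25 and miR-93 lie inside Mcm7 (miR-25-3p at chr5:138165332-138165353, minus strand).
miR-675-5p: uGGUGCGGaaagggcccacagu
miR-675-3p: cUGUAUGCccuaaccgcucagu
miR-5129-5p: aUGUGGGGgcauugguauuuuc
miR-5129-3p: aAUGUGCCugugcaucucuucc
miR-19b-3p: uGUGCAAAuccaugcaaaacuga
miR-92a-3p: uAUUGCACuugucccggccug
miR-25-3p: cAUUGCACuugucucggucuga
miR-17-5p: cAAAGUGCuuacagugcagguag
miR-93-5p: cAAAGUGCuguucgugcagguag
The miR-92a-3p and miR-25-3p sequences share the seed AUUGCAC, and miR-17-5p and miR-93-5p share AAAGUGC. The array measures the host transcripts and precursors, not these mature molecules.

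The promoters below show how alike the duplicated genes are. The 250 bases before the start of 4930467E23Rik (chr8:19729326-19729575, plus strand) were the same as those before Gm15319 (chr8:20363203-20363452, minus strand), and their windows of 300 bases, which reach 50 bases past the start, were identical at 300 positions. Tmem254a (chr14:25927673-25927922, minus strand) and Tmem254c (chr14:26067426-26067675, minus strand) were likewise identical at 300 positions, and Tmem254b aligned to both with 284 of 300 positions identical. The 250 bases before the start of Tmem254b begin further along the same sequence. Where they overlap those of Tmem254a and Tmem254c, the bases are the same. The H3c2 (chr13:23752095-23752344, plus strand) and H3c13 (chr3:96268404-96268653, plus strand) windows have any CCAAT or TATAAA, on either strand, in capitals.
4930467E23Rik and Gm15319: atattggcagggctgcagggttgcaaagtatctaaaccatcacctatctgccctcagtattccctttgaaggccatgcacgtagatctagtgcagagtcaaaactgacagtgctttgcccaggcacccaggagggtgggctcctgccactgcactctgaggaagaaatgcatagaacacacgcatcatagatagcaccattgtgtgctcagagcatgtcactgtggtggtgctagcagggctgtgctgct
Tmem254a and Tmem254c: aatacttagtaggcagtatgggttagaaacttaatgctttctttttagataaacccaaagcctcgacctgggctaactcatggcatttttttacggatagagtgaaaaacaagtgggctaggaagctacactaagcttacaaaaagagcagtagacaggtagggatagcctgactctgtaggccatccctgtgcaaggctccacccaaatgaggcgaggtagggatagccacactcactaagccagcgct
H3c2: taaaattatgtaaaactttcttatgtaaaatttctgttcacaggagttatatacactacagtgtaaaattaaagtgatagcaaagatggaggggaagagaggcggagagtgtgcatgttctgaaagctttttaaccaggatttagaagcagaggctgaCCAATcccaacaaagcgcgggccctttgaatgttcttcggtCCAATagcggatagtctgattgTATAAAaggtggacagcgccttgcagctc
H3c13: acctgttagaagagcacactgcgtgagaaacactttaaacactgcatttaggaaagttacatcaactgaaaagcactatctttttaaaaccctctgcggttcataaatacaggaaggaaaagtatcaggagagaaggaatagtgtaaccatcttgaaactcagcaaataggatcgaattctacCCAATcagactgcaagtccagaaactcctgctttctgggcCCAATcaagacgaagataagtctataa
The histone H3 genes encode the same kind of protein from less similar promoters. Of the 8 symbols on the H3 probe set that fell, 7 had a promoter window; H3c15 and H3c14 were identical at 284 of 300 aligned positions and the other 20 pairs at 146 to 193. CCAAT stood in 7 of these 7 windows and in 81.6% of 49 windows of histone symbols among the members, against 37.4% of all 32851 windows. TATAAA stood in 53.1% of the histone windows and in 2 of the 7 H3 windows, H3c2 among them, against 13.6% of all. TGGGAA, a core of the site bound by Rbpj, the DNA-binding partner of the Notch intracellular domain, stood on either strand in 23.3% of the 30 windows of symbols on probe sets that rose and in 25.6% of all windows. Those 30 windows covered 21 symbols, and no window was available for Rgma or H19, whose probe sets rose. The motif counts are matches of letters within 300 bases and no measure of binding.

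Notch1, measured by a probe set of its own, read 6.35, 6.20 and 5.96 on the log2 scale in the control arrays and 8.07, 7.49 and 7.72 in the N1ICD arrays, a 3.01-fold difference (limma adjusted p = 0.00796, and p = 0.1 in a two-sided exact permutation test, the smallest that 3 against 3 arrays can give). Correlations between arrays were 0.984 to 0.988 within groups and 0.976 to 0.983 between groups, and array medians were 5.59 to 5.72. All 6 neuroendocrine markers measured were above every array median, as was 1 of 6 macrophage markers, 3 of 6 fibroblast markers, 3 of 5 endothelial markers and 2 of 5 alveolar and airway markers. The mean level of the endothelial list was 5.67 to 5.85 in controls and 6.53 to 6.73 in N1ICD arrays, with Kdr and Tek higher. The fibroblast list read 5.83 to 5.90 in controls and 5.63 to 5.67 in N1ICD arrays, with no marker called, and the macrophage list 4.75 to 4.83 and 4.76 to 4.80. The neuroendocrine list read 10.30 to 10.36 in controls and 10.33 to 10.45 in N1ICD arrays, with Insm1 called lower and no marker called higher. The alveolar and airway list read 5.60 to 5.84 and 5.68 to 5.76. Sftpc and Scgb1a1 of that list were called in opposite directions, and which of them was higher is not given here. The part of these lists in the results below was not tested, and more cells of a type cannot be told apart from more RNA per cell in these bulk samples.

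Across the 1814 probe sets, 28 changed (limma on all 41345 probe sets, Benjamini-Hochberg adjusted p under 0.05), 26 of them higher and 2 lower in N1ICD cells. That is 1.54%, beside 1.95% of all probe sets and 3.09% of those with 1 symbol. For rises alone the background was 1.33% of all probe sets and 2.12% of those with 1 symbol, and for falls 0.622% of all. The 3 N1ICD arrays all lay above the 3 control arrays for 179 of the 1814, or 9.87%, beside 8.88% of all probe sets, and all below for 218, beside 11.4% of all. The median log2 change was -0.00, beside -0.01 for all probe sets. Their median control level was 5.90 on the log2 scale, beside 6.09 for probe sets with 1 symbol and 5.64 for all, and 45.2% lay below every array median, beside 41.8% and 48.9%. The count of calls depended on the settings. It was 9 to 15 with 1 array left out, 13 without variance moderation (only 7 of them among the 28) and 1 in a test against a 1.5-fold change. An intensity trend with a robust prior called 44 (background 3.16%), and a fit on probe sets with a symbol only, chosen after seeing the data, called 64 (background 6.4%). The balance of 26 higher to 2 lower moved as well, to 40 to 24 in the fit on probe sets with a symbol, 32 to 24 without probe sets below the median, and 7 to 6 without moderation.

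**Figure D1:**
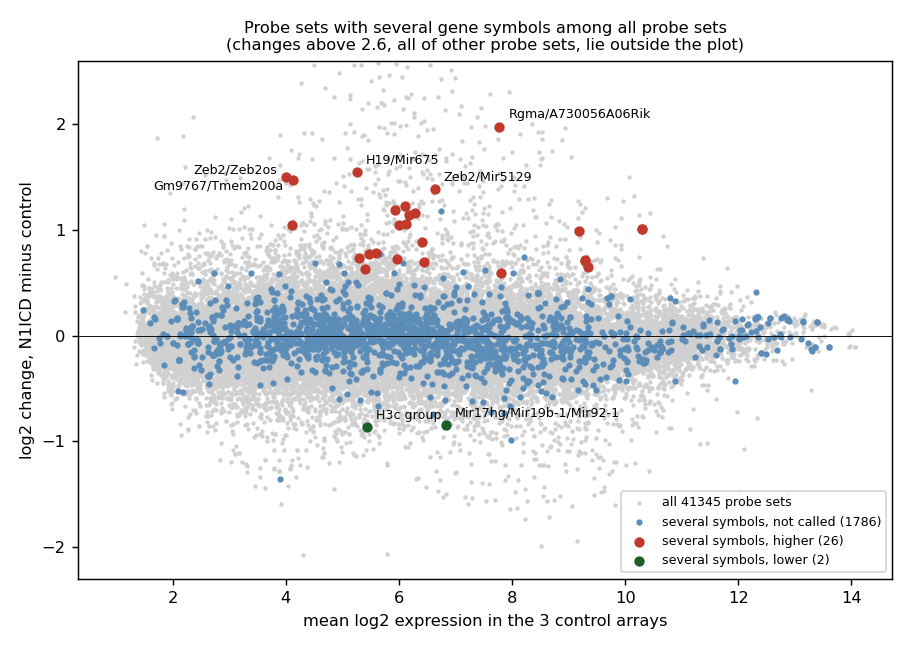
Mean log2 level in the 3 control arrays (x) against log2 change, N1ICD minus control (y), for all 41345 probe sets (grey) and for the 1814 with several symbols (blue where not called, red where higher, green where lower by limma adjusted p under 0.05). The 26 higher probe sets reach a log2 change of 1.98 and the 2 lower ones lie at -0.86 and -0.85.

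The 28 calls were spread over the structural classes, which were set from symbols and RefSeq positions only. Against the 1.95% of all probe sets called in either direction, multicopy families had 5 higher and 1 lower of 517 (1.16%), overlapping or adjacent genes 4 higher of 397 (1.01%) and antisense pairs 3 higher of 252 (1.19%). Small RNA hosts had 2 higher of 109 (1.83%), predicted copies 7 higher of 152 (4.61%) and single genes that had been renamed 1 higher of 27 (3.7%). The remaining 360 probe sets, 260 of which include a predicted or clone-named symbol, had 4 higher and 1 lower (1.39%). The naming rule put the miR-17-92 host and Zeb2/Zeb2os with the families and the H3 call with the remainder. With these moved to where their biology places them, after seeing the data, the calls numbered 5 for families, 4 for antisense pairs, 3 for small RNA hosts and 4 for the remainder. Probe sets with 2 symbols gave 19 calls in 1140, those with 3 to 5 symbols 8 in 442, and those with 6 or more 1 in 232. By limma, 0 of the 118 probe sets on the Y chromosome and 0 of the 129 on X were called (7 and 14 had an unadjusted p under 0.05, beside 13.4% of all probe sets), and 1 call fell among the 224 whose symbols lie on several chromosomes.

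Calls are not all separate measurements. The 1814 probe sets hold 1622 different sets of 6 values, because 297 of them repeat the values of another, and they hold 1286 different sets of symbols. The 28 calls make 27 different sets of values, and 6 of them belong to 1 pair of predicted genes, 3 to Anxa11 with 2 predicted genes and 3 to Tmem254a, Tmem254b and Tmem254c.

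**Figure D2:**
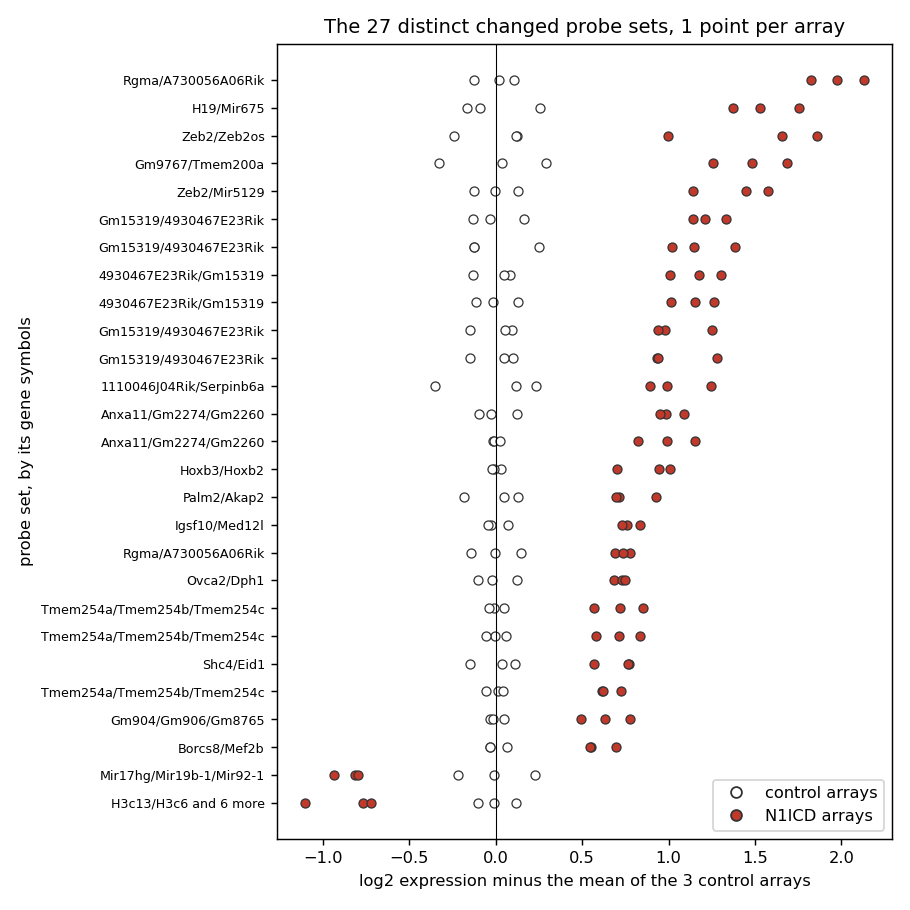
Each row is 1 of the 27 distinct probe sets that changed, and each point 1 array, as log2 level minus the mean of the 3 control arrays (white: control, red: N1ICD). In every row the 3 red points lie on 1 side of the 3 white points, to the right in all but Mir17hg/Mir19b-1/Mir92-1 and the H3c probe set.

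Among hosts of small RNAs the H19 and Zeb2 loci rose and the miR-17-92 host fell. The probe set of H19, an imprinted long noncoding RNA from whose transcript miR-675 is cut, read 5.09, 5.17 and 5.51 in controls and 6.63, 7.01 and 6.78 in N1ICD arrays, and no control reached an N1ICD value. The log2 change was 1.55 ± 0.16 (SE, 3 against 3 arrays), a 2.93-fold rise (limma adjusted p = 0.0056). It was called without each single array in turn, with a highest adjusted p of 0.0358.

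Zeb2 encodes a zinc finger and homeodomain repressor of epithelial genes such as E-cadherin, and 2 probe sets carry its symbol beside that of another RNA. The Zeb2/Mir5129 probe set read 6.76, 6.50 and 6.63 in controls and 8.20, 7.77 and 8.08 in N1ICD arrays. Its log2 change was 1.39 ± 0.14 (limma adjusted p = 0.0061), called without each single array as well. The Zeb2/Zeb2os probe set, shared with the antisense RNA of the locus, was dimmer: 4.13, 4.13 and 3.77 in controls and 5.87, 5.01 and 5.66 in N1ICD arrays. It rose 2.84-fold (SE 0.24 on the log2 scale, limma adjusted p = 0.0305), and the N1ICD arrays, though all above the controls, spread over most of a log2 unit. This call was lost when any array but N1ICD replicate 2 was left out (highest adjusted p = 0.118). The probe sets do not say which of Zeb2 and Zeb2os supplied the signal.

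Mir17hg, the host of the miR-17-92 cluster that Myc and E2f factors are known to drive, shares its probe set with Mir19b-1 and Mir92-1. It read 6.82, 7.06 and 6.61 in controls and 6.02, 5.90 and 6.03 in N1ICD arrays. Every N1ICD array lay below every control, and the log2 change was -0.85 ± 0.14 (limma adjusted p = 0.0328). The call was lost when any array but control replicate 3 was left out (highest adjusted p = 0.134).

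The related microRNAs miR-25 and miR-93, whose seeds match those of miR-92a and miR-17 above, lie within Mcm7, a subunit of the replicative helicase. The Mir93/Mcm7 probe set read 5.24, 5.39 and 5.10 in controls and 4.86, 4.97 and 4.68 in N1ICD arrays, a log2 change of -0.41 (limma adjusted p = 0.218). The Mir25/Mcm7 probe set read 7.15, 7.41 and 7.11 in controls and 6.52, 7.09 and 6.93 in N1ICD arrays, a log2 change of -0.37 (limma adjusted p = 0.427). Neither passed the test, although on both the N1ICD arrays lay below the controls, as they did for 11.4% of all probe sets.

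Of all 92 probe sets that pair a microRNA symbol with another gene, 2 were higher and 1 lower (3.26%, beside 1.95% of all probe sets), and their median log2 change was 0.03. Meg3, an imprinted noncoding RNA known as a growth suppressor, gave the largest rise in mean among them that did not pass: Meg3/Mir770 read 5.76, 5.63 and 5.62 in controls and 7.23, 6.13 and 5.95 in N1ICD arrays (log2 change 0.77, limma adjusted p = 0.369). N1ICD replicate 1 stood apart from the other N1ICD arrays there. A second probe set with the Meg3 symbol, Meg3/Mir1906-1/Mir1906-2, read 5.34, 4.78 and 5.03 in controls and 6.09, 5.17 and 5.07 in N1ICD arrays. These values overlap (log2 change 0.39, limma adjusted p = 0.647). The C430049B03Rik probe set, which holds Mir322, Mir503 and Mir351, had a log2 change of 0.59 (limma adjusted p = 0.101). Vmp1/Mir21a, which takes in the precursor of miR-21, differed by -0.01. Another 44 probe sets (29 with different values) were chosen for a small nucleolar or related RNA symbol beside another symbol. The other symbol was a host gene or, as in Snora36b/Mir664, a microRNA. Limma called 0 of the 44 and 2 had an unadjusted p under 0.05, beside 1.95% and 13.4% of all probe sets. Gas5/Mir5117, a snoRNA host that accumulates in arrested cells, carries no snoRNA symbol and is not among them. It read 7.85, 8.06 and 7.89 in controls and 7.68, 8.03 and 8.06 in N1ICD arrays.

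**Figure D3:**
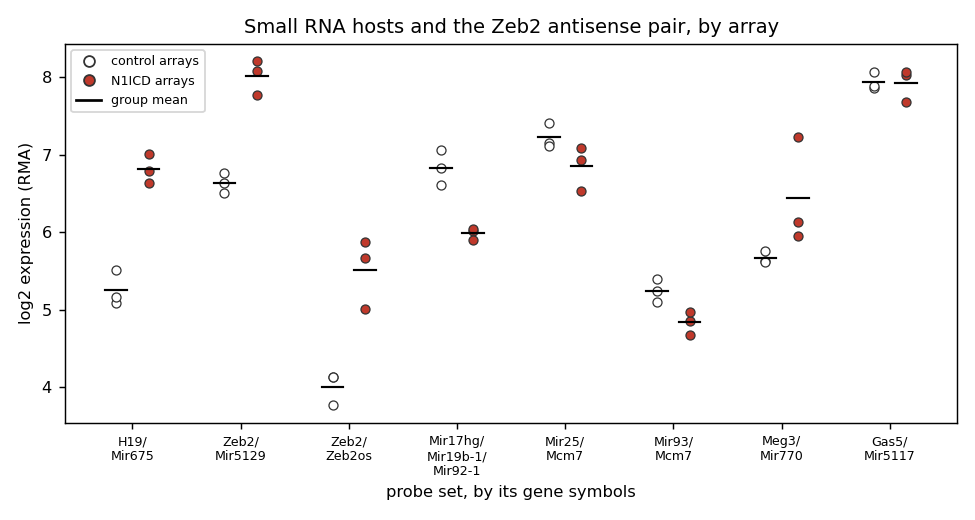
Log2 level (RMA) in each array of 8 probe sets, with control arrays as white points, N1ICD arrays as red points and group means as bars. H19/Mir675 and both Zeb2 probe sets lie higher in N1ICD arrays and Mir17hg/Mir19b-1/Mir92-1 lower, the Mcm7 probe sets and Meg3/Mir770 do not pass the test, and Gas5/Mir5117 overlaps.

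Among overlapping and adjacent genes the largest change was that of Rgma, which encodes repulsive guidance molecule A, a membrane-anchored ligand of neogenin and co-receptor for bone morphogenetic proteins. The brighter of its 2 probe sets, shared with the neighbouring transcript A730056A06Rik, read 7.88, 7.65 and 7.79 in controls and 9.91, 9.60 and 9.75 in N1ICD arrays. This was the largest change of all 1814 probe sets, 3.94-fold, with a log2 change of 1.98 ± 0.12 (limma adjusted p = 0.00068, and at most 0.00916 without any 1 array). The dimmer probe set read 5.14, 5.43 and 5.28 in controls and 6.07, 5.98 and 6.02 in N1ICD arrays. It rose less, by 0.74 ± 0.11 (limma adjusted p = 0.0253), and lost its call without any 1 array (highest adjusted p = 0.106).

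The other calls in this class were smaller. Ovca2/Dph1, where Dph1 serves the diphthamide modification of elongation factor 2, rose by 0.72 ± 0.10 (limma adjusted p = 0.0208). Shc4/Eid1, an adaptor of receptor tyrosine kinases and an inhibitor of the acetyltransferase EP300, rose by 0.70 ± 0.12 (limma adjusted p = 0.0389). Both lost the call without any 1 array, with highest adjusted p-values of 0.0965 and 0.130, and Shc4/Eid1 also lost it with array medians made equal (adjusted p = 0.0662). A second probe set with the symbols of Ovca2 and Dph1 went the other way, from 7.84, 7.93 and 7.84 in controls to 7.64, 7.65 and 7.67 in N1ICD arrays, a difference of -0.22 on the log2 scale (limma adjusted p = 0.378). A second with those of Shc4 and Eid1 read 8.12, 8.20 and 8.28 in controls and 7.78, 8.01 and 8.31 in N1ICD arrays, which overlap (log2 change -0.16, limma adjusted p = 0.724). Borcs8/Mef2b, a subunit of a lysosome-positioning complex and a MADS-box transcription factor, was among the remaining probe sets and rose by 0.60 ± 0.10 (limma adjusted p = 0.0375), the smallest called rise (highest adjusted p without 1 array 0.151, lost in all 6). The other probe set with these symbols differed by 0.05 (limma adjusted p = 0.882). The largest differences among neighbours that did not pass were Lrp2bp/Ankrd37, the latter a hypoxia-inducible ankyrin repeat protein, at 1.18 (limma adjusted p = 0.194), and 9930014A18Rik/Lratd2 at -0.98 (limma adjusted p = 0.0719).

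Palm2/Akap2, now 1 gene in RefSeq and known for anchoring protein kinase A, rose by 0.78 ± 0.13 (limma adjusted p = 0.0346; 0.127 at most without 1 array, lost in all 6). It also missed the threshold after a second quantile normalization and with equal medians (adjusted p = 0.0558 and 0.0534).

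In the antisense class 3 pairs rose. Gm9767/Tmem200a read 4.15, 4.41 and 3.79 in controls and 5.38, 5.80 and 5.60 in N1ICD arrays, so that the N1ICD arrays stood over a log2 unit above the controls in mean. The log2 change was 1.48 ± 0.19 (limma adjusted p = 0.0140), lost without control replicate 1, N1ICD replicate 2 or N1ICD replicate 3 (highest 0.0679). A second probe set with the same symbols read 5.27, 4.91 and 4.87 in controls and 5.37, 5.47 and 5.49 in N1ICD arrays, a smaller difference of 0.43 on the log2 scale (limma adjusted p = 0.225). The probe set of 1110046J04Rik and Serpinb6a, an intracellular serine protease inhibitor, read 3.76, 4.35 and 4.24 in controls and 5.01, 5.11 and 5.36 in N1ICD arrays. Its log2 change was 1.04 ± 0.18 (limma adjusted p = 0.0446; at most 0.144 without 1 array, lost in all 6), and it missed the threshold after a second quantile normalization (adjusted p = 0.0652) and with equal medians (adjusted p = 0.0631). Igsf10/Med12l, an extracellular immunoglobulin-domain protein and a paralogue of a Mediator kinase-module subunit, rose by 0.77 ± 0.10 (limma adjusted p = 0.0117), lost without N1ICD replicate 2, N1ICD replicate 3, or either of control replicates 2 and 3 (highest 0.0676). A probe set with the symbol Med12l alone was brighter, with a control mean of 8.32, and differed by 0.24 (limma adjusted p = 0.363). One with Serpinb6a alone, with a control mean of 6.54, differed by 0.79 (limma adjusted p = 0.0687).

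Copies of predicted genes gave 7 rises in 152 probe sets (4.61%, beside 1.33% of all probe sets called higher), and 6 of these were the 6 probe sets shared by 4930467E23Rik and Gm15319, whose promoters are printed above. Their control means were 5.92 to 6.29 and their log2 changes 1.05 to 1.23, and on each of the 6 every N1ICD array lay above every control. The largest change read 6.28, 6.08 and 5.98 in controls and 7.44, 7.32 and 7.25 in N1ICD arrays, 1.23 ± 0.12 on the log2 scale (limma adjusted p = 0.0045). Leaving out 1 array kept the call on 3 of the 6 in all fits; the other 3 lost it without control replicate 2 and without control replicate 3, and 2 of these also without other arrays (highest adjusted p = 0.0521 to 0.0691). As the 6 share their targets, they are repeated readings and not independent genes. The seventh, Gm904/Gm906/Gm8765, rose by 0.63 ± 0.11 (limma adjusted p = 0.0433) and lost the call without any 1 array (highest 0.159) and with equal medians (adjusted p = 0.0524). A second probe set with these symbols read 5.37, 5.12 and 5.22 in controls and 5.72, 5.74 and 5.78 in N1ICD arrays, a log2 change of 0.51 (limma adjusted p = 0.0787). A probe set with the symbol Gm906 alone differed by -0.09 ± 0.42 (limma adjusted p = 0.964).

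Anxa11, a calcium-dependent phospholipid-binding annexin, shares 3 bright probe sets with the predicted genes Gm2274 and Gm2260, and 2 of these hold the same values. The repeated one read 10.43, 10.28 and 10.21 in controls and 11.29, 11.40 and 11.26 in N1ICD arrays, a 2.01-fold rise (log2 change 1.01 ± 0.11, limma adjusted p = 0.0063). The other read 9.18, 9.18 and 9.22 in controls and 10.02, 10.35 and 10.18 in N1ICD arrays, with a log2 change of 0.99 ± 0.11 (limma adjusted p = 0.0092; 0.0510 without control replicate 2). The repeated probe set was the brightest of those that changed and was called without each single array (highest adjusted p = 0.0386).

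Among multicopy families the Tmem254 triplet and a Hoxb pair rose. The 3 probe sets shared by Tmem254a, Tmem254b and Tmem254c, transmembrane proteins encoded side by side, had control means of 9.28 to 9.34 and log2 changes of 0.65 to 0.71 (limma adjusted p = 0.0230 to 0.0281). Each lost its call without control replicate 2 and without at least 4 other arrays in turn (highest adjusted p = 0.106 to 0.119), and 2 of the 3 with equal medians (adjusted p = 0.0527 and 0.0553). Hoxb3/Hoxb2, homeobox factors that pattern the hindbrain, read 6.44, 6.40 and 6.39 in controls and 7.42, 7.36 and 7.11 in N1ICD arrays. The controls differed by less than 0.1, and the log2 change was 0.88 ± 0.11 (limma adjusted p = 0.0145), kept only without N1ICD replicate 3 (highest 0.0713).

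Replication-dependent histones package newly made DNA and are expressed in S phase, and their many copies encode the same proteins. The list of these genes, chosen by symbol (H2ac, H2bc, H3c, H4c and H1f, which also takes in the replacement variant H1f10), has 38 probe sets that hold 35 different sets of values. Of the 35, limma called 1 lower and 0 higher, beside 0.622% and 1.33% of all probe sets. An unadjusted p under 0.05 was found for 9, beside 13.4% of all. The mean was lower in N1ICD cells for 32 of the 35, beside 21937 of all 41345 probe sets. The control mean lay below every array median for 15 of the 35 (42.9%, beside 48.9% of all). The N1ICD arrays lay below all controls on 13 of the 35 and above on none, beside 11.4% and 8.88% of all probe sets. The median log2 change was -0.22, beside -0.01 for all probe sets. It was -0.23 after a second quantile normalization and -0.24 with array medians made equal, with 30 and 33 of 35 lower, and -0.15 with 28 of 35 lower without N1ICD replicate 2. Since the probe sets share genes and sequences, these counts are a description and not 35 independent observations.

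The probe set that passed carries H3c13, H3c6, H3c2, H3c4, H3c3, H3c7, H3c15 and H3c14, which lie on chromosomes 13 and 3. It read 5.33, 5.42 and 5.55 in controls and 4.33, 4.66 and 4.71 in N1ICD arrays, with no overlap. The log2 change was -0.86 ± 0.14 (limma adjusted p = 0.0305), and the call was lost without any 1 array (highest 0.122) and after a second quantile normalization (adjusted p = 0.0507). Another 7 probe sets with the same 8 symbols and other values also had lower means, with log2 changes of -0.74 to -0.21 and adjusted p-values of 0.139 to 0.531. By histone type the median log2 change was -0.32 over 12 H3 probe sets, -0.19 over 9 of H2A, -0.17 over 7 of H2B and -0.15 over 5 of H4. The 5 of the list with control levels above 12 on the log2 scale differed by -0.15 to -0.01; among them H2ac18/H2ac19/H2ac20, at 13.6, differed by -0.11. The H2bc8/H2bc6/H2bc4 probe set read 7.77, 8.35 and 8.31 in controls and 7.11, 7.79 and 7.78 in N1ICD arrays, with replicate 1 lowest in both groups, and its log2 change of -0.58 did not pass (limma adjusted p = 0.364).

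Another 21 probe sets carry histone symbols outside the list, 19 of them with different values. Limma called 0 of them and 0 had an unadjusted p under 0.05, beside 1.95% and 13.4% of all probe sets. Of the 19, 10 had a lower mean, and the median log2 change of the 19 was -0.00. The 7 probe sets of H3f3a, H3f3b and H3f3c, which encode the replacement histone H3.3, not confined to S phase, differed by -0.27 to 0.02. The 12 of H2al, a histone variant family of the testis, differed by -0.36 to 0.19. The mean was lower in N1ICD cells for 6 of the 7 H3f3 probe sets and for 4 of the 10 H2al probe sets with different values.

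**Figure D4:**
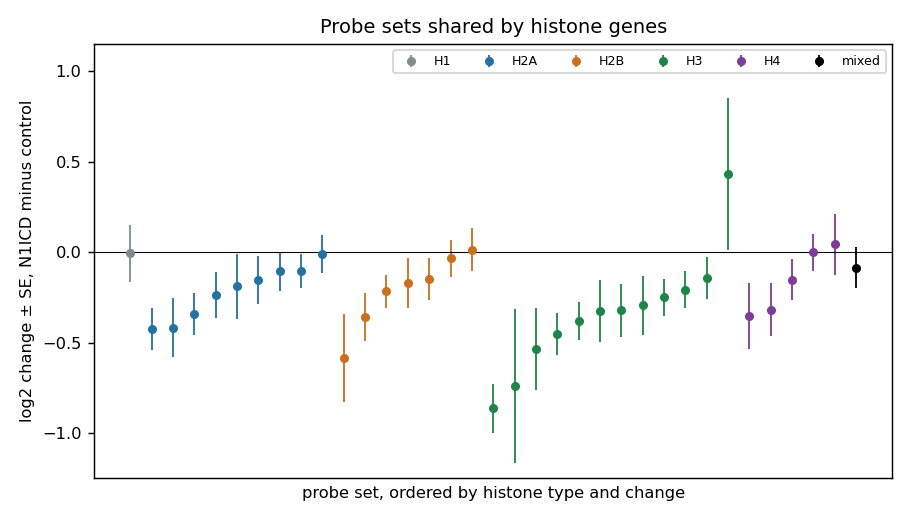
Log2 change, N1ICD minus control, with its standard error for the 35 distinct probe sets of the listed histone genes, ordered by histone type and then by change. Of the 35, 32 lie below 0, the lowest being the H3c probe set at -0.86, and the only H3c probe set above 0 is at 0.43 with a wide error.

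Limma called 0 probe sets of the other large families at an adjusted p under 0.05, beside 1.95% of all probe sets, a share at which families of this size can hold none. Olfactory and vomeronasal receptor genes held 85 probe sets with a median control level of 3.99, and 95.3% lay below every array median; 3 had an unadjusted p under 0.05. Ribosomal protein genes and their pseudogene copies held 59, with a median control level of 8.56 and a median log2 change of 0.00; the largest was Rpl12/Gm11425 at -0.37 (limma adjusted p = 0.162). Zinc finger genes held 48, major histocompatibility and other immune families 28, detoxification enzymes 17 and protocadherins 3. An unadjusted p under 0.05 was found for 2 ribosomal, 2 zinc finger, 6 immune, 2 detoxification and 0 protocadherin probe sets, beside 13.4% of all probe sets. The largest change in the immune families, and the largest fall of all 1814, was Klrb1a/Klrb1c, natural killer cell receptors, which read 4.68, 3.06 and 3.93 in controls and 1.92, 2.37 and 3.31 in N1ICD arrays. These values overlap, and the log2 change of -1.36 did not pass (limma adjusted p = 0.285). Gstp1/Gstp2, enzymes that conjugate glutathione, had the largest change among detoxification families, 0.36 (limma adjusted p = 0.236).

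Few genes of the Notch, neuroendocrine and cell division lists are measured by shared probe sets. Limma called none of these 8 probe sets and 2 had an unadjusted p under 0.05, beside 1.95% and 13.4% of all probe sets. The Notch ligand Dll4, with Gm14207, read 6.27, 6.47 and 6.58 in controls and 6.67, 6.17 and 6.14 in N1ICD arrays, and the groups overlapped. Neurod1, a neurogenic basic helix-loop-helix factor, with Cerkl, read 7.08, 7.19 and 7.60 in controls and 6.45, 6.63 and 6.94 in N1ICD arrays. All N1ICD arrays were lower, as for 11.4% of all probe sets, but the log2 change of -0.62 did not pass (limma adjusted p = 0.200). Ncam1/Gm11149, a neural adhesion molecule, differed by 0.38 (limma adjusted p = 0.420), with all N1ICD arrays above the controls, as for 8.88% of all probe sets. Ccne2/Ints8, cyclin E2 with an Integrator subunit, differed by -0.20 (limma adjusted p = 0.435). The cell division list took only cyclins named by a letter and a number. Outside it, Ccnf/Mir5134, which holds cyclin F, read 7.85, 7.92 and 7.89 in controls and 7.44, 7.20 and 7.49 in N1ICD arrays. Its log2 change of -0.51 did not pass (limma adjusted p = 0.0905). Ccnyl1/2810408I11Rik, also outside, differed by -0.50 (limma adjusted p = 0.113). The Lpar6/Rb1 probe sets, in a line from a model with Rb knocked out, differed by -0.25 and 0.07.

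For many members a symbol also has a probe set of its own, which allows the shared and the own reading to be compared within each array. Such pairs numbered 1704 over all; 4 with the same values were left out, and the 1700 others covered 1139 shared probe sets and 923 genes. The change of the shared probe set differed from that of the own probe set in 4 pairs (limma on the difference, adjusted over 1700 pairs, 0.235%), while 193 had an unadjusted p under 0.05. In 3 of the 4 the own probe set rose and the shared one moved little. All 4 calls were lost without any 1 array (highest adjusted p = 0.241 to 0.245).

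Trim47, a RING-type ubiquitin ligase, is one of them. Its own probe set read 6.43, 6.25 and 6.33 in controls and 7.76, 7.89 and 7.55 in N1ICD arrays, while Trim65/Trim47 read 6.90, 6.91 and 7.01 and then 7.06, 7.03 and 7.03. The changes of 1.40 and 0.10 differed by 1.30 ± 0.13 (limma adjusted p = 0.0382). Chrm2, the M2 muscarinic acetylcholine receptor, changed by 1.35 on its own probe set, from 6.60 to 7.95 in mean, and by 0.16 on Chrm2/9330158H04Rik, from 4.42 to 4.58 (limma adjusted p of the difference = 0.0382). Gnal, a stimulatory G protein alpha subunit known from olfactory neurons, changed by 1.19 on its own probe set and by 0.18 on Mppe1/Gnal (limma adjusted p of the difference = 0.0390). The fourth pair ran the other way: Rgma/A730056A06Rik rose by 1.98, and the own probe set of A730056A06Rik, at 4.22, 4.12 and 4.05 in controls and 4.75, 4.80 and 4.37 in N1ICD arrays, had a log2 change of 0.51 (adjusted p of the difference = 0.0390).

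The 2 readings of a gene were seldom both called. The own probe set alone was called in 13 pairs, the shared one alone in 7 and both in 1, and neither in 1679. In the 13 pairs chosen by the own call, the shared probe set moved the same way and by less in 13. The choice by the own call favours a smaller shared change. The shared probe set was dimmer in 10 of the 13, beside 861 of all 1700 pairs, and the own probe set was by rule the brightest with its symbol alone. Has2, the main hyaluronan synthase, rose by 1.98 on its own probe set (limma adjusted p = 0.0049), and Has2/Has2os had a log2 change of 0.68 (limma adjusted p = 0.0509). Cd34, a sialomucin of progenitor and endothelial cells, fell by 1.14 on its own probe set, and Cd34/Gm16897 differed by -0.23. Hoxb3/Hoxb2, at 0.88, was the pair with both called, beside 0.65 on the own probe set of Hoxb2 and 0.76 on that of Hoxb3, which did not pass (limma adjusted p = 0.063). Palm2/Akap2 rose by 0.78 while the own probe set of Akap2 differed by -0.23, and the difference did not pass (limma adjusted p = 0.289).

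**Figure D5:**
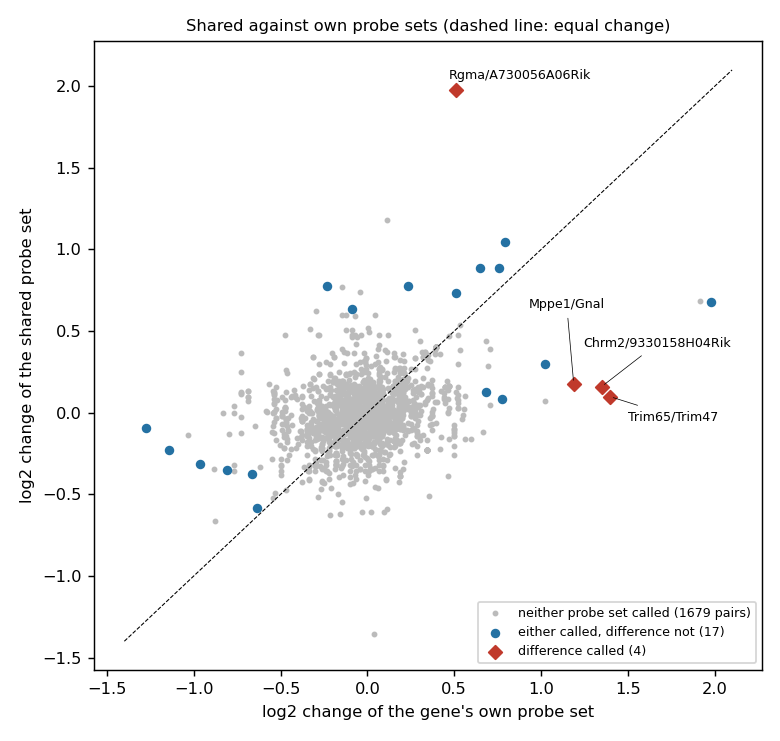
Log2 change of a gene's own probe set (x) against that of the probe set it shares with another gene (y) for 1700 pairs, with a dashed line of equal change. Grey points have neither probe set called (1679 pairs), blue points have either called, and the 4 red diamonds are pairs whose changes differ by limma, at 1.40 against 0.10 for Trim47 and 0.51 against 1.98 for A730056A06Rik.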

How the data were processed

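RNA of 6 sorted samples (3 control, 3 N1ICD) was hybridised to 1-colour arrays. The deposited table holds log2 values for 41345 probe sets, made by the authors with RMA, per the submitters' processing notes; RMA by its definition corrects background, quantile-normalizes and summarises probes. Neither the log base nor a genome build for the array is stated by labels or headers; log2 was taken, because values reach 14.1 and natural logs of a 16-bit scanner end at 11.1. Symbols came from the platform annotation, and classes from symbols and RefSeq positions. limma 3.58.1 (lmFit, eBayes; R 4.3.3) was fitted to all probe sets, N1ICD minus control (two-sided), with p-values adjusted by Benjamini-Hochberg over the whole table at a threshold of 0.05, and was tested on simulated data. Own probe sets were the brightest with that symbol alone. Members named are the 12 largest called changes in each direction, up to 4 a class, called members of each gene list or else its largest change, and Gas5, Mir17hg and Meg3; any other name was picked with its values in view. All members and lists were chosen with earlier results of these data known. The number of arrays limits the precision. Alternatives covered normalization, filters, variance models, thresholds, the replicate number as a block and each array left out. A shared probe set cannot assign its signal to 1 of its genes.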

Additional observations from a re-analysis of the deposited data

How the results depend on the processing

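Beside 28 changed members (26 higher, 2 lower), a second quantile normalization gave 27 (25 of the 28 kept), equal array medians 23 (20 higher, 3 lower, 22 of the 28 kept) and array weights 28. Dropping probe sets below the 25th percentile gave 41 (9 lower) and below the median 56 (24 lower), of all probe sets 3.77% and 7.9%. The median filter kept 23 of the 28. An intensity trend with a robust prior gave 44 (12 lower), beside 3.16% of all. Fitting only probe sets with symbols, an alternative chosen after seeing the data, gave 64 (40 higher, 24 lower), beside 6.4%. Adjusting over these alone gave 36 (6 lower). No moderation gave 13 (7 higher, 6 lower, with 7 of the 28 kept), the 1.5-fold test 1 (1 higher, 0 lower) and an adjusted p under 0.01 9 (9 higher, 0 lower). The replicate numbers were not shown to pair the samples (correlations of deviations 0.116, -0.113 and 0.086); the replicate block gave 12 (12 higher, 0 lower) and 0 called pairs. Leaving out 1 array gave 9 to 15 (9 to 15 higher, 0 to 1 lower), and 0 to 0 of the 4 called pairs. By class, in the order antisense, families, remainder, neighbours, predicted copies, renamed genes and small RNA hosts, the calls numbered 3, 6, 5, 4, 7, 1 and 2. They were 2, 6, 5, 4, 7, 1 and 2 with a second quantile normalization, and 2, 4, 6, 3, 6, 0 and 2 with equal medians, and 6, 7, 7, 8, 8, 3 and 2 with the 25th percentile filter. They were 10, 7, 8, 14, 8, 4 and 5 with the median filter, and 6, 10, 7, 8, 7, 3 and 3 with the trend and robust prior, and 12, 10, 8, 17, 9, 3 and 5 with the fit on probe sets with symbols. They were 5, 7, 6, 6, 7, 3 and 2 with adjustment over these, and 3, 3, 3, 2, 2, 0 and 0 with no moderation, and 0, 0, 0, 1, 0, 0 and 0 with the 1.5-fold test. They were 0, 0, 3, 1, 3, 0 and 2 with an adjusted p under 0.01, and 1, 0, 2, 1, 6, 0 and 2 with the replicate block, and 3, 6, 5, 4, 7, 0 and 2 with only symbols of 2 or more current genes. They were 4, 5, 4, 4, 7, 1 and 3 with the amended classes. With 1 array left out they ranged over 0 to 2, 0 to 2, 2 to 3, 1 to 1, 3 to 5, 0 to 0 and 2 to 2. Total counts of 23 to 41 lay within 1.5 times 28; the cause of the other differences was not tested.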
